A study of Mus musculus with 8 samples.

Results

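The genes described are 10 integrin subunit genes of the mouse, the alpha subunit genes Itga2, Itga3, Itga5, Itga6 and Itgav and the beta subunit genes Itgb1, Itgb3, Itgb4, Itgb5 and Itgb8. They were taken by name, out of 55536 genes listed in every library, of which 21409 were classed as protein-coding. Messenger RNA (RNA-seq) and ribosome footprints, the mRNA fragments that ribosomes shield from nuclease, were counted in KRPC-A cells, a pancreatic tumour line from genetically engineered mice on a C57BL/6 background. The 4 kinds of cells were Gcn2 KO in leucine-free medium, Gcn2 KO in amino-acid-replete medium, Gcn2 WT in leucine-free medium and Gcn2 WT in amino-acid-replete medium, all kept there for 1 h and all measured in both assays. Gcn2, whose gene symbol is Eif2ak4, encodes a kinase that is activated by uncharged transfer RNA and phosphorylates the initiation factor eIF2alpha. The sources used here name no tumour driver shared by the cells, and do not say how the knockout was made or whether either genotype is a single clone.

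Each of the 8 groups is 1 library, so every ratio compares a pair of libraries and has no check against replicates. Values are normalised counts per 1000000 reads (CPM), scaled within an assay, and the intervals beside them are 95% intervals for counting error only. A ratio passed when it was at least 2-fold and its interval lay on 1 side of no difference. Ratios put KO over WT and leucine-free over replete medium. Counts are relative to the other genes of a library, so a shift shared by all genes would not show. In bulk counts, fewer cells that express a gene and less RNA per cell cannot be told apart.

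Counted reads ran from 49136610 to 60680169 in the RNA-seq libraries and from 2671491 to 9993211 in the footprint libraries, fewest in footprints of leucine-free WT cells. Eif2ak4 RNA was 16.9 and 13.9 CPM in leucine-free and replete KO cells, against 71.8 and 87.9 CPM in leucine-free and replete WT cells. The labels call the cells similar to pancreatic ductal adenocarcinoma. Of their defining epithelial markers, Epcam had 0 RNA counts in all 4 libraries and Krt19 had 7 to 25, while Krt18, Krt8 and Sox9 were well covered. The mesenchymal genes Vim and Col3a1 had 1093 to 1586 and 1549 to 1928 RNA CPM. They made up most of the RNA sum of 8 fibroblast and mesenchyme markers, 2731 to 3579 CPM. Of these 8 markers, 1 to 3 were at 0 in each RNA library. The 6 acinar markers were at 0 except for 4 RNA counts in leucine-free KO cells, and the 8 immune and endothelial markers summed to 13 to 37 RNA counts per library.

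Integrins are adhesion receptors made of 1 alpha and 1 beta chain that join the extracellular matrix to the actin cytoskeleton. The beta1 chain, from Itgb1, pairs with many alpha chains, among them alpha2 for collagen, alpha3 and alpha6 for laminin and alpha5 for fibronectin. The alpha v chain, from Itgav, pairs with beta1, beta3, beta5 or beta8 and binds ligands that carry the RGD tripeptide, such as vitronectin and latent TGF-beta, whereas alpha6 with beta4 anchors epithelial cells to the basement membrane at hemidesmosomes. In pancreatic tumours integrins are studied as receptors for the dense matrix around the tumour cells.

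The start regions of 4 genes are shown because, among the 6 genes well covered in both assays, Itga3, Itga5 and Itgb5 were higher in KO cells in both media and both assays, described below, and Itgb1 was not. They are taken from RefSeq, build GRCm38.p6, read 5' to 3' along the gene's own strand, and hold the bases that lie upstream of the gene model used for counting. Capitals mark GGGCGG or its reverse complement CCGCCC, the core of the GC box bound by SP-family factors. Itga3 lies on chr11:95076802-95076964, minus strand, Itga5 on chr15:103366792-103367041, minus strand, Itgb5 on chr16:33829415-33829664, plus strand, and Itgb1 on chr8:128685404-128685653, plus strand.
Itga3: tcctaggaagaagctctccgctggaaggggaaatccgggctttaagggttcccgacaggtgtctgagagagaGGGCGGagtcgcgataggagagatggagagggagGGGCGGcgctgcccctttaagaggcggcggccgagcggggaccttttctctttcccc
Itga5: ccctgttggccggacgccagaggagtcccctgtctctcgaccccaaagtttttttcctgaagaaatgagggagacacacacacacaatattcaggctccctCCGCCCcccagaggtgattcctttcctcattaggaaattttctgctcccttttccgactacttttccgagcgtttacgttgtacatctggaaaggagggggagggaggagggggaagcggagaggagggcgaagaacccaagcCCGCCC
Itgb5: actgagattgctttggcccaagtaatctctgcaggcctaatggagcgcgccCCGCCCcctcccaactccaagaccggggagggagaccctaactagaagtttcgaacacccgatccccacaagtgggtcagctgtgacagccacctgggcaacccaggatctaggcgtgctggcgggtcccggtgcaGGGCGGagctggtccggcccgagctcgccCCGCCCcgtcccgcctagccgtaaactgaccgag
Itgb1: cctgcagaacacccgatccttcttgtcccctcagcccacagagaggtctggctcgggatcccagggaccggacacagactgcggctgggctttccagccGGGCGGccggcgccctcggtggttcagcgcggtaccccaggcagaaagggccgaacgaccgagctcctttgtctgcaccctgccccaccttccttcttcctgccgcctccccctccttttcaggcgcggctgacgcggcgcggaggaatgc
The Itga3 stretch of 163 bases held 2 GC boxes. Of the stretches of 250 bases, that of Itga5 held 2, that of Itgb5 held 3 and that of Itgb1 held 1. Among the 32851 promoters of the RefSeq table, 32.7% held at least 1 GC box in 250 upstream bases and 18.4% in a stretch of 163. G and C made up 62.6%, 55.6%, 65.2% and 68% of the Itga3, Itga5, Itgb5 and Itgb1 windows, against a median of 52.4% over all promoters. The shares over all promoters are thus not shares among windows of like base content. On both strands the letters TGANTCA (AP-1), TGACGTCA (CRE), TGATGCAA (C/EBP-ATF composite), TATAAA and CCAAT were not found in these 4 windows; 6.75%, 1.55%, 0.792%, 12.4% and 33.8% of all promoters held them. No GC box overlaps another in these windows, and a match in letters is not a bound site. Entries for Itga2, Itgav and Itgb8 are not printed, and the table was without entries for Itga6, Itgb3 and Itgb4. The windows of 250 bases upstream of Itga2 and Itgav held 0 GC boxes. Whether GC box counts go with the KO over WT ratios was not tested.

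Across the 8 libraries the family was dominated by 1 gene. The 10 genes together held 98.5% to 99.1% of all reads on the 26 integrin subunit genes. Their summed RNA level was 2335 and 2269.8 CPM in leucine-free and replete KO cells, against 2329 and 2269 CPM in leucine-free and replete WT cells. Summed footprints were 2149 and 2173 CPM in leucine-free and replete KO cells, against 2026 and 2372 CPM in leucine-free and replete WT cells. Of the 10 genes, 8 were measured in RNA-seq, meaning a mean count of at least 30 over the 4 libraries, and 6 were measured in footprints: Itga3, Itga5, Itga6, Itgav, Itgb1 and Itgb5. Itga2 and Itgb4 missed the filter in RNA-seq, and Itgb3 passed it through 1 library alone.

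Levels can be compared between genes per exonic length, given here as TPM, the CPM divided by exonic length and rescaled. In RNA-seq the order was Itgb1, Itgav, Itga6, Itgb5, Itga3, Itga5 and Itgb8 in all 4 libraries, followed by Itgb3, Itgb4 and Itga2 in varying order. Itgb1 RNA stood at 1579 and 1601 TPM in leucine-free and replete KO cells, against 1758 and 1765 TPM in leucine-free and replete WT cells, and was at or above 99.8% to 99.9% of protein-coding genes. Itgav RNA followed at 185 to 201 TPM, Itga6 RNA at 138 to 148 TPM, and Itgb8 RNA was far below at 2.41 to 3.65 TPM. In KO cells Itga6 and Itgb5 were neighbours within counting error, with RNA levels of 142 (139 to 145) and 140.4 (135 to 145) TPM in leucine-free medium and 148 (145 to 151) and 144 (139.9 to 149) TPM in replete medium. In WT cells these intervals were apart. The RNA intervals of Itgb5 and Itga3 also overlapped in leucine-free KO cells, at 140.4 (135 to 145) and 135.0 (131 to 139) TPM. In footprints Itga3 and Itgb5 followed Itgb1 in both KO libraries, whereas Itgav and then Itga3 followed it in both WT libraries. The WT leucine-free footprint intervals of Itgav and Itga3 overlapped, at 93.5 (86.7 to 100.7) and 88.2 (79.2 to 98.0) TPM. Exonic length includes untranslated regions, which carry few footprints, so footprint levels per exonic length depend on how long these regions are in each gene.

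**Figure D1:**
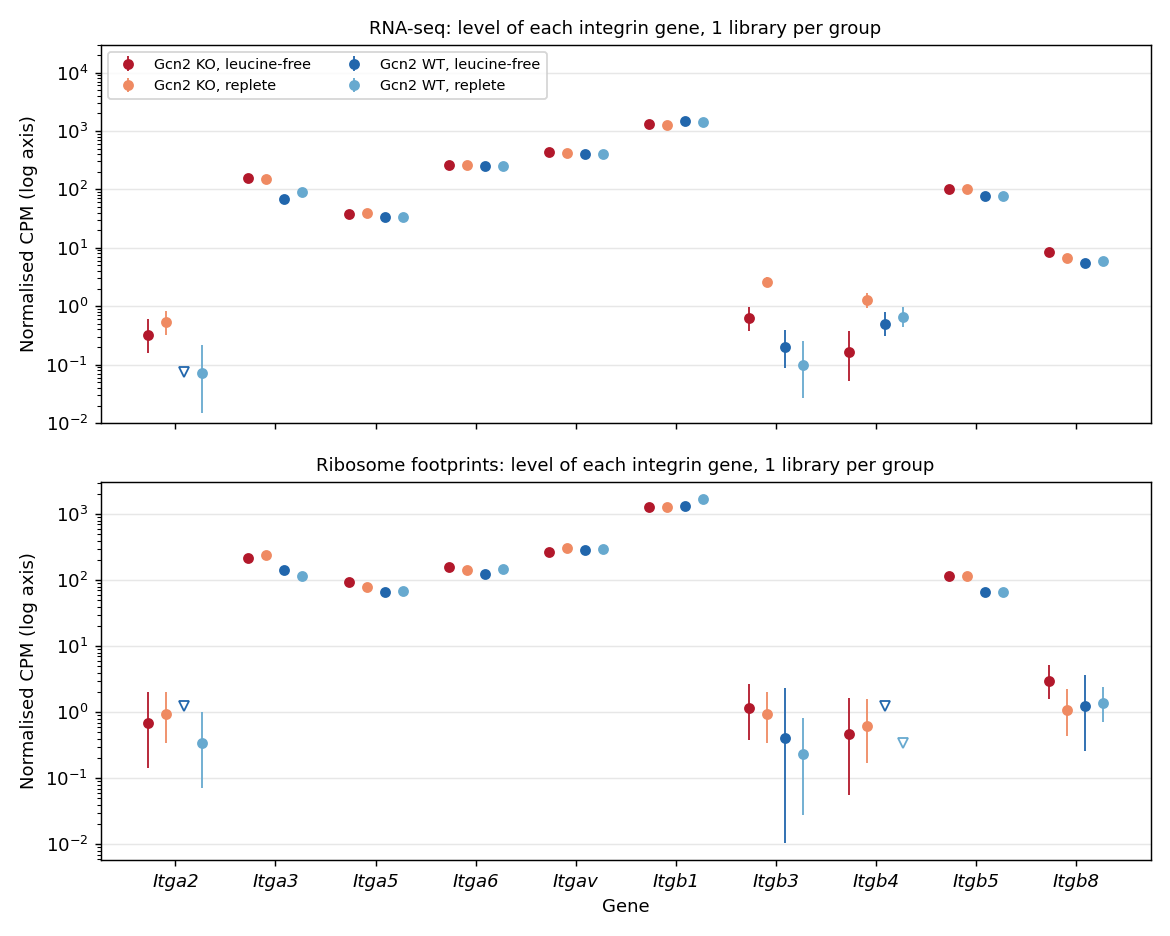
Normalised CPM (log axis) of the 10 integrin genes in RNA-seq (top) and ribosome footprints (bottom), 1 point per library, with leucine-free KO, replete KO, leucine-free WT and replete WT from left to right within each gene; bars are 95% Poisson intervals and open triangles mark the limit that a count of 0 allows. Itgb1 lies above every other gene in all 8 libraries, Itga3, Itga5 and Itgb5 are higher in both KO libraries than in both WT libraries in both assays, and Itga2, Itgb3 and Itgb4 have few counts.

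The laminin receptor chains differed from each other. Itga3 (ENSMUSG00000001507) lies on chromosome 11 from 95044474 to 95076801 (GRCm38, minus strand) and encodes the alpha3 chain, which with beta1 binds laminins of the basement membrane. Its RNA was 159 and 151 CPM in leucine-free and replete KO cells, against 67.9 and 88.8 CPM in leucine-free and replete WT cells. Its footprints were 217 and 242 CPM in leucine-free and replete KO cells, against 145 and 114 CPM in leucine-free and replete WT cells. Both KO libraries were thus higher than both WT libraries in each assay.

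In leucine-free medium Itga3 RNA was 2.34-fold higher in KO cells, a log2 ratio of 1.22 (1.16 to 1.29), which passed and was larger in size than the ratios of 94.4% of measured genes. In replete medium the RNA log2 ratio was 0.76 (0.70 to 0.82), short of 2-fold. In footprints the order was the other way: the KO over WT log2 ratio was 1.08 (0.96 to 1.20) in replete medium, a 2.11-fold difference that passed and was larger than the ratios of 97.7% of measured genes, and 0.59 (0.41 to 0.77) in leucine-free medium. Either assay thus has Itga3 past 2-fold in 1 medium, and short of it in the other.

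Itga6, on chromosome 2 from 71745616 to 71858416 (plus strand), encodes the other laminin-binding chain and pairs with beta1 or beta4. Its RNA was 265 and 262 CPM in leucine-free and replete KO cells, against 256 and 256 CPM in leucine-free and replete WT cells, and none of its 4 RNA log2 ratios exceeded 0.05 in size. Footprints of Itga6 were 158 and 143 CPM in leucine-free and replete KO cells, against 125 and 148 CPM in leucine-free and replete WT cells. The WT leucine-free library was the low one, and the KO over WT footprint log2 ratio was 0.34 (0.14 to 0.54) in leucine-free medium and -0.04 (-0.17 to 0.08) in replete medium.

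Itga5, the alpha chain of the fibronectin receptor, lies on chromosome 15 from 103344286 to 103366763 (minus strand). It had 37.7 and 39.7 RNA CPM in leucine-free and replete KO cells, against 33.6 and 33.4 CPM in leucine-free and replete WT cells, with KO over WT log2 ratios of 0.17 (0.05 to 0.28) and 0.25 (0.15 to 0.36) in leucine-free and replete medium. Its footprints were 94.3 and 78.0 CPM in leucine-free and replete KO cells, against 65.7 and 68.8 CPM in leucine-free and replete WT cells. KO libraries were above WT libraries in both assays, by less than 2-fold, and the widest gap was the leucine-free footprint log2 ratio of 0.52 (0.25 to 0.80).

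Itgav, on chromosome 2 from 83724397 to 83806916 (plus strand), encodes the alpha v chain. Its RNA was 433 and 424 CPM in leucine-free and replete KO cells, against 409.6 and 406 CPM in leucine-free and replete WT cells, and the KO over WT log2 ratios were 0.08 and 0.06. Its footprints were 266 and 304 CPM in leucine-free and replete KO cells, against 288 and 298 CPM in leucine-free and replete WT cells. These 4 footprint values overlap between the genotypes. Itgav shares 634 exonic bases with the antisense gene Gm13684, and counting without strand cannot separate reads from the pair.

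Itga2 (chromosome 13, 114833081 to 114932100, minus strand), whose alpha2 chain binds collagen with beta1, had few reads. It had 10 and 20 RNA counts in leucine-free and replete KO cells, against 0 and 3 in leucine-free and replete WT cells, and 3 and 6 footprint counts in leucine-free and replete KO cells, against 0 and 3 in leucine-free and replete WT cells. A count of 0 allows up to 0.0759 RNA CPM and up to 1.24 footprint CPM in leucine-free WT cells.

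Among the beta chains, Itgb1 (chromosome 8, 128685654 to 128733200, plus strand) had RNA of 1328 and 1282 CPM in leucine-free and replete KO cells, against 1479 and 1401 CPM in leucine-free and replete WT cells. Its footprints were 1291 and 1288 CPM in leucine-free and replete KO cells, against 1335 and 1675 CPM in leucine-free and replete WT cells. In RNA both KO libraries were slightly below both WT libraries, with KO over WT log2 ratios of -0.16 (-0.17 to -0.14) and -0.13 (-0.15 to -0.11) in leucine-free and replete medium. In footprints the replete WT library stood above the other 3, so the KO over WT log2 ratio was -0.38 (-0.42 to -0.34) in replete medium and -0.05 (-0.11 to 0.01) in leucine-free medium. The leucine-free ratio lay at 0.01 when scaled by total counts.

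Itgb5 (ENSMUSG00000022817, chromosome 16, 33829665 to 33949338, plus strand) encodes the beta5 chain, which pairs with alpha v in the vitronectin receptor. Its RNA was 103 and 101 CPM in leucine-free and replete KO cells, against 76.4 and 76.3 CPM in leucine-free and replete WT cells. Its footprints were 117 and 115 CPM in leucine-free and replete KO cells, against 66.1 and 65.6 CPM in leucine-free and replete WT cells. Both KO libraries were higher than both WT libraries in each assay. KO over WT log2 ratios were 0.43 (0.35 to 0.50) and 0.40 (0.33 to 0.47) in RNA and 0.82 (0.56 to 1.09) and 0.81 (0.65 to 0.97) in footprints, in leucine-free and replete medium. None passed 2-fold, and the footprint ratios were larger in size than those of 87.8% and 94.7% of measured genes.

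Itgb8 (chromosome 12, 119158022 to 119238802, minus strand), whose beta8 chain with alpha v binds latent TGF-beta, had 8.33 and 6.61 RNA CPM in leucine-free and replete KO cells, against 5.49 and 6.03 CPM in leucine-free and replete WT cells. The leucine-free KO over WT log2 ratio was 0.60 (0.33 to 0.87) and the replete one 0.13 (-0.13 to 0.39). Its footprints were 13 and 7 counts in leucine-free and replete KO cells, against 3 and 12 counts in leucine-free and replete WT cells, too few to compare.

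Itgb3 (chromosome 11, 104608000 to 104670476, plus strand), the beta3 chain of a second vitronectin receptor and of the platelet fibrinogen receptor, had 19 and 98 RNA counts in leucine-free and replete KO cells, against 8 and 4 counts in leucine-free and replete WT cells. The replete KO library alone carried it past the filter, so its ratios had to be large there. They were 4.57 (3.33 to 6.64) for KO over WT in replete medium, 1.57 (0.36 to 3.02) for KO over WT in leucine-free medium, and -2.04 (-2.86 to -1.35) for leucine-free over replete in KO cells, all log2. Footprints of Itgb3 were 5 and 6 counts in leucine-free and replete KO cells, against 1 and 2 counts in leucine-free and replete WT cells, so the difference between the KO media seen in RNA was not detectable in footprints at this depth.

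Itgb4 (chromosome 11, 115974709 to 116008412, plus strand), the partner of alpha6 in hemidesmosomes, had 5 and 48 RNA counts in leucine-free and replete KO cells, against 20 and 27 counts in leucine-free and replete WT cells. It had 2 and 4 footprint counts in leucine-free and replete KO cells, against 0 in both WT libraries, where a count of 0 allows up to 1.24 CPM in leucine-free and 0.345 CPM in replete medium. Of its exonic bases, 537 are shared with the antisense gene B230344G16Rik, where counting without strand cannot assign a read to either gene.

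The KO against WT comparison asks which genes differ between the genotypes in the same medium. In RNA, 1 of 8 measured members passed in replete medium (Itgb3), where 6.83% of 10809 measured genes passed and 4.29% were higher. In leucine-free medium 2 of 8 passed, both higher (Itga3 and Itgb3), where 8.36% of measured genes passed and 5.13% were higher. In footprints 1 of 6 passed in replete medium (Itga3, higher), where 2.92% of 9164 measured genes passed and 1.99% were higher, and 0 of 6 in leucine-free medium, where 7.2% passed. Since Itgb3 entered through its high library, its calls carry no weight in these counts. The median log2 ratio over the 10 genes was 0.30 in RNA and 0.70 in footprints in leucine-free medium, and 0.33 in RNA and 0.49 in footprints in replete medium, against -0.01, 0.00, -0.01 and -0.04 over all measured genes. Over the measured members alone the medians were 0.30 in RNA and 0.43 in footprints in leucine-free medium, and 0.19 in RNA and 0.10 in footprints in replete medium. These RNA medians still include Itgb3. Among the other members measured in RNA, the middle log2 ratio was 0.17 (Itga5) in leucine-free medium and 0.13 (Itgb8) in replete medium.

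**Figure D2:**
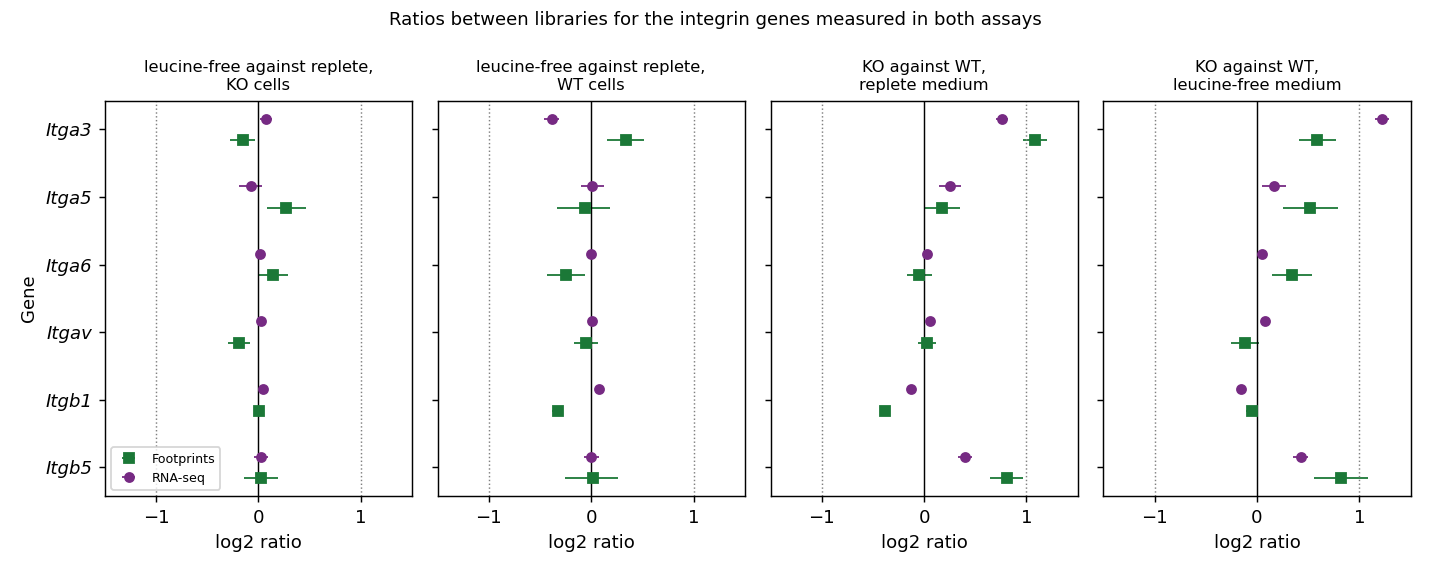
Log2 ratios (x axis) of the 6 integrin genes measured in both assays, with 1 panel per comparison, circles for RNA-seq, squares for footprints and bars for 95% counting intervals; dotted lines mark 2-fold. Itga3 is past 2-fold in RNA in leucine-free medium (1.22) and in footprints in replete medium (1.08), Itgb5 footprints lie at 0.81 and 0.82 in the KO against WT panels, and Itgb1 footprints lie at -0.33 in the WT leucine panel.

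Several epithelial markers were also higher in KO cells. Both KO libraries were above both WT libraries for 5 of 8 duct and epithelium markers in RNA (Cdh1, Krt7, Krt8, Krt18 and Sox9) and for 4 in footprints, and below for 1 in RNA. The 8 duct and epithelium markers summed to 1104 and 481 RNA CPM in leucine-free and replete KO cells, against 333 and 240.4 CPM in leucine-free and replete WT cells, and to 846 and 671 footprint CPM in leucine-free and replete KO cells, against 389 and 388 CPM in leucine-free and replete WT cells. Krt18 and Sox9 made up most of that sum, with Krt18 RNA at 286 and 148 CPM in leucine-free and replete KO cells, against 108 and 61.0 CPM in leucine-free and replete WT cells. Of the 8 fibroblast and mesenchyme markers, 1 was above and 3 below in RNA, and the list summed to 2965 and 2731 RNA CPM in leucine-free and replete KO cells, against 3579 and 2848 CPM in leucine-free and replete WT cells. In footprints 1 was above and 1 below. The footprint sums overlapped between genotypes, at 5771 and 9043 CPM in leucine-free and replete KO cells, against 6946 and 8704 CPM in leucine-free and replete WT cells. The part of these marker gene differences in the Itga3 and Itgb5 ratios was not tested. With 1 library per genotype and medium, genotype and any other difference between the cultures cannot be told apart.

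The leucine comparison asks what 1 h without leucine altered. In KO cells 1 of 8 measured members passed in RNA (Itgb3, lower), where 3.19% of measured genes passed and 1.42% were lower, again a call fixed by how Itgb3 entered, and 0 of 6 in footprints, where 2.12% passed. In WT cells 0 of 8 passed in RNA and 0 of 6 in footprints, where 1.71% and 1.48% of measured genes passed. Median log2 ratios of the 10 genes were 0.02 in RNA and 0.01 in footprints in KO cells, and 0.00 and -0.02 in WT cells. Over all measured genes they were -0.01 in RNA and -0.02 in footprints in KO cells, and 0.01 and -0.07 in WT cells.

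Of the measured members, Itga3 alone had leucine ratios on opposite sides of 0 in KO and WT cells with both intervals off 0, and it did so in both assays. Its RNA log2 ratio was 0.08 (0.02 to 0.13) in KO cells, against -0.39 (-0.46 to -0.31) in WT cells. Its footprint log2 ratio was -0.15 (-0.27 to -0.04) in KO cells, against 0.34 (0.16 to 0.52) in WT cells. None of these reached 2-fold. Scaled by total counts, both KO intervals crossed 0: the RNA ratio was 0.051 (-0.0047 to 0.106) and the footprint ratio -0.083 (-0.201 to 0.035). In WT cells Itga3 thus had less RNA and more footprints without leucine.

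Itgb1 footprints were lower without leucine in WT cells, with a log2 ratio of -0.33 (-0.38 to -0.27), against 0.00 (-0.05 to 0.05) in KO cells, while its RNA ratios were 0.05 in KO cells and 0.08 in WT cells. The WT footprint ratio of Itgb1 was larger in size than those of 70.9% of measured genes, whose median was -0.07. Itga6 footprints had log2 ratios of 0.14 (0.00 to 0.29) in KO cells and -0.24 (-0.43 to -0.06) in WT cells. The same ratios of Itga5 footprints were 0.28 (0.08 to 0.47) in KO cells and -0.06 (-0.33 to 0.19) in WT cells. Itgb5 footprints had leucine log2 ratios with intervals across 0, at 0.02 (-0.14 to 0.19) in KO cells and 0.01 (-0.25 to 0.27) in WT cells.

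The KO minus WT difference of the leucine ratios passed for 1 of 8 members in RNA (Itgb3, at -3.01), where 4.71% of measured genes passed and 2.28% were lower, and for 0 of 6 in footprints, where 4.79% passed. Itgb3 entered through its replete KO library, which also fixes the sign of this difference, so the call carries no weight. For Itga3 it was 0.46 (0.37 to 0.55) in RNA and -0.49 (-0.70 to -0.28) in footprints. For Itgb1 footprints it was 0.33 (0.26 to 0.40), for Itga6 footprints 0.38 (0.15 to 0.61) and for Itga5 footprints 0.34 (0.02 to 0.65). These footprint values rest on the WT leucine-free library, the shallowest of the 8, with 302 reads for Itga6 and 159 for Itga5.

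Translation efficiency (TE) is the footprint CPM of a gene over its RNA CPM, so it follows how many ribosomes an mRNA carries relative to other mRNAs. Untranslated regions add RNA reads but few footprints, so TE compared between genes also depends on how long these regions are in each gene. Among the 6 members measured in both assays, Itga5 had the highest TE in 3 libraries and Itga3 in leucine-free WT cells, and Itga6 had the lowest in all 4. Intervals overlapped for Itga3 and Itga5 in leucine-free WT cells, and for Itga6 and Itgav in leucine-free KO cells. The log2 TE of Itga5 was 1.32 and 0.97 in leucine-free and replete KO cells, against 0.97 and 1.05 in leucine-free and replete WT cells. That of Itga6 was -0.74 and -0.87 in leucine-free and replete KO cells, against -1.04 and -0.79 in leucine-free and replete WT cells. Itga3 ranged more than the others, with 0.45 and 0.68 in leucine-free and replete KO cells, against 1.09 and 0.36 in leucine-free and replete WT cells.

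None of the 6 genes passed 2-fold in TE in any comparison, where 3.04% of 9092 genes passed for leucine in KO cells, 3.23% for leucine in WT cells, 1.4% for KO against WT in replete medium, 5.96% for KO against WT in leucine-free medium and 8.16% for the KO minus WT difference. The log2 TE ratio of Itga3 for leucine-free over replete medium was -0.23 (-0.36 to -0.10) in KO cells, against 0.73 (0.54 to 0.92) in WT cells, a difference of -0.96 (-1.19 to -0.73) that was larger in size than that of 90.1% of measured genes. For Itgb1 the same ratio was -0.05 (-0.10 to 0.00) in KO cells, against -0.41 (-0.46 to -0.35) in WT cells. For Itgb5 the KO over WT log2 TE ratio was 0.39 (0.12 to 0.66) in leucine-free and 0.41 (0.24 to 0.58) in replete medium, so its footprints differed more between the genotypes than its RNA. Over all genes the median log2 TE ratio for leucine was -0.03 in KO cells and -0.10 in WT cells.

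**Figure D3:**
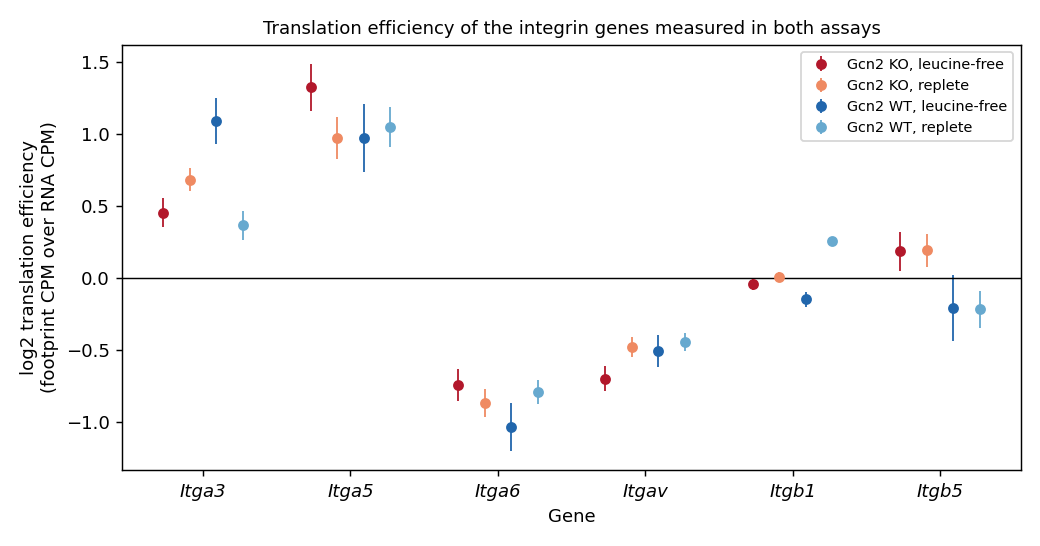
Log2 translation efficiency (y axis, footprint CPM over RNA CPM) of the 6 integrin genes measured in both assays, 1 point per group with 95% counting intervals, ordered leucine-free KO, replete KO, leucine-free WT and replete WT within each gene. Itga3 is at 1.09 in leucine-free WT cells and between 0.36 and 0.68 in the other 3 groups, and Itgb5 is above 0 in both KO groups and below 0 in both WT groups.

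Because alpha and beta chains form pairs, each gene was also expressed as a share of its own kind per exonic length, over 18 alpha and 8 beta genes. Itga3 made up 26.0% and 25.1% of alpha chain RNA in leucine-free and replete KO cells, against 13.7% and 17.3% in leucine-free and replete WT cells. In footprints its share was 37.5% and 40.6% in leucine-free and replete KO cells, against 31.4% and 25.1% in leucine-free and replete WT cells. Itgav was the largest alpha chain by RNA, at 37.7% and 37.6% in leucine-free and replete KO cells, against 44.0% and 42.0% in leucine-free and replete WT cells. In footprints per exonic length Itga3 was the largest in both KO libraries, and Itgav in both WT libraries, with 33.3% in leucine-free and 34.8% in replete medium. Exonic length, 10744 bases for Itgav and 5710 for Itga3, includes untranslated regions, which carry few footprints. Not divided by length, KO footprints of Itgav exceeded those of Itga3, at 266 against 217 CPM in leucine-free and 304 against 242 CPM in replete medium. The KO order of these 2 genes thus depends on the length used.

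Itgb1 made up 90.8% and 90.7% of beta chain RNA in leucine-free and replete KO cells, against 93.0% and 92.7% in leucine-free and replete WT cells. Itgb5 held most of the remainder, with 8.07% and 8.18% in leucine-free and replete KO cells, against 5.52% and 5.80% in leucine-free and replete WT cells. Its footprint share was 9.25% and 9.13% in leucine-free and replete KO cells, against 5.27% and 4.24% in leucine-free and replete WT cells. Beta chain RNA exceeded alpha chain RNA 3.35-fold and 3.30-fold in leucine-free and replete KO cells, against 4.50-fold and 4.11-fold in leucine-free and replete WT cells. In footprints the excess was 3.50-fold and 3.40-fold in leucine-free and replete KO cells, against 4.38-fold and 5.46-fold in leucine-free and replete WT cells. The KO libraries were lower than the WT libraries in both assays. Footprint shares and folds per exonic length also depend on how long the untranslated regions of each gene are. An mRNA or footprint share is not a share of receptors at the cell surface.

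**Figure D4:**
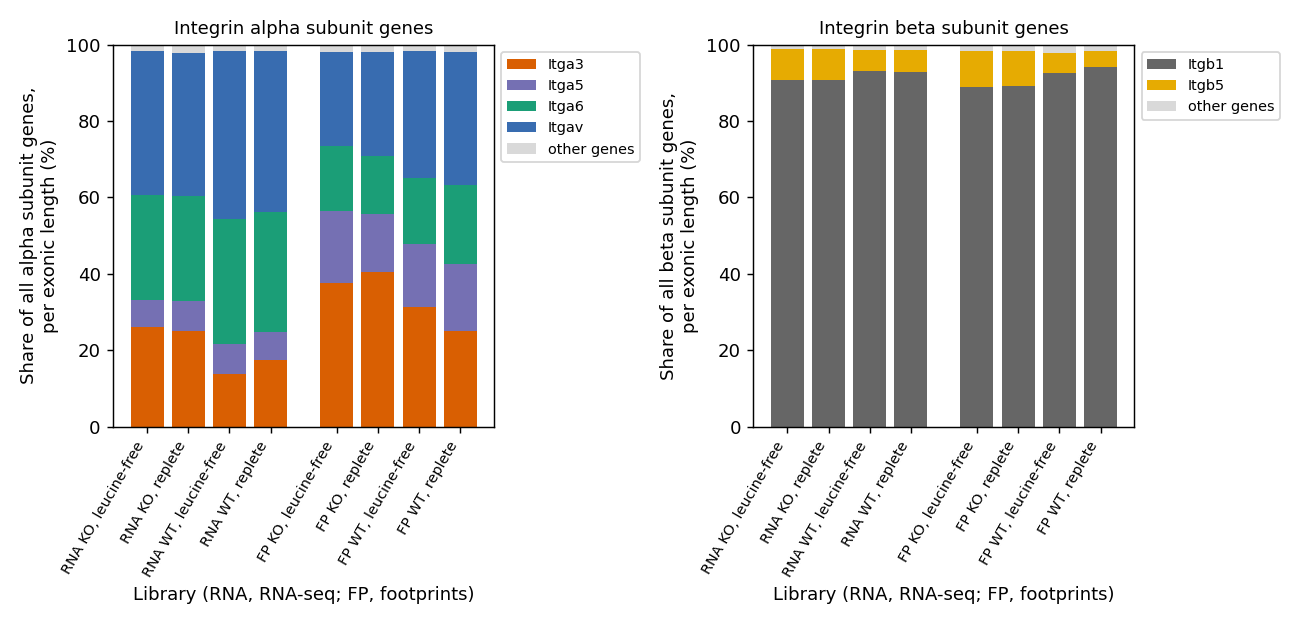
Share of each gene (y axis, percent) in all alpha subunit genes (left) and all beta subunit genes (right) per exonic length, 1 bar per library, RNA-seq on the left and footprints on the right of each panel. Itga3 takes 25.1% to 26.0% of alpha chain RNA in KO cells and 13.7% to 17.3% in WT cells, and Itgb5 takes 8.07% to 8.18% of beta chain RNA in KO cells and 5.52% to 5.80% in WT cells.

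Itga3 was the only member that passed and was measured in both assays, so genes of like pattern were sought for it. Those closest to it over the 8 libraries, by the root mean square difference of centred log2 CPM among 9092 genes measured in both assays, were Nlgn2 (0.0860), Chd7 (0.109) and Dysf (0.109). Nlgn2, a neuroligin, had KO over WT folds of 2.46 and 1.83 in RNA and 1.72 and 2.08 in footprints, in leucine-free and replete medium. Chd7, a chromatin remodeller, had 2.01 and 1.53 in RNA and 1.58 and 1.74 in footprints, and Dysf, a membrane repair protein, had 2.07 and 1.72 in RNA and 1.85 and 2.31 in footprints. As for Itga3, the RNA fold of all 3 was larger in leucine-free medium and the footprint fold in replete medium. The 3 genes were chosen for their likeness over these same 8 libraries, so this shared pattern follows from the choice.

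Of the 16 other integrin subunit genes, 5 were measured in RNA-seq and 2 of these in footprints. In RNA 2 of the 5 passed for KO over WT in leucine-free and 1 in replete medium, where 8.36% and 6.83% of all measured genes passed. For leucine in WT cells 1 of the 5 passed in RNA, where 1.71% of all measured genes passed. Itga2b, the platelet alpha IIb chain, passed higher in KO cells, with 71 and 67 RNA counts in leucine-free and replete KO cells, against 31 and 33 in leucine-free and replete WT cells, and log2 ratios of 1.55 (0.94 to 2.22) and 1.13 (0.52 to 1.79). Itgae, the alpha E chain of lymphocytes, had 28 and 46 counts in leucine-free and replete KO cells, against 16 and 41 in leucine-free and replete WT cells, and passed for KO over WT in leucine-free medium at 1.16 (0.24 to 2.16) and for leucine in WT cells at -1.28 (-2.24 to -0.44). Only its replete libraries, with 46 and 41 counts, brought Itgae past the filter. Both calls rest on the leucine-free WT library with 16 counts, so they carry little weight. Itga7, a laminin receptor chain of muscle, Itga10, a collagen receptor chain, and Itgb7, a leukocyte beta chain, did not pass in any comparison. Their KO over WT RNA log2 ratios in leucine-free and replete medium were 0.36 and 0.67 for Itga7, -0.55 and -0.95 for Itga10, and -0.80 and -0.74 for Itgb7.

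Of 24 matrix ligand genes, 20 were measured in RNA, of which 6 passed higher and 2 lower for KO over WT in leucine-free medium, where 8.36% of all measured genes passed. In replete medium 3 passed higher and 2 lower, where 6.83% of all measured genes passed. Tenascin C, from Tnc, had RNA log2 ratios of 2.34 (1.90 to 2.82) and 1.65 (1.27 to 2.06) in leucine-free and replete medium. Its footprint log2 ratio was 0.39 (-0.56 to 1.47) in leucine-free medium, which did not pass, and 2.61 (1.82 to 3.55) in replete medium, and its TE passed lower in leucine-free medium at -1.95 (-2.97 to -0.93). Edil3, whose product is a ligand of the alpha v integrins, had 2.33 (2.13 to 2.53) and 2.43 (2.24 to 2.62). Col1a1, a chain of collagen I, was lower in KO cells, at -1.54 (-1.78 to -1.30) and -1.72 (-1.97 to -1.48). In footprints 4 of 18 measured ligands passed higher and 1 lower in either medium, where 7.2% of all measured genes passed in leucine-free and 2.92% in replete medium. Lama5, the laminin chain recognised by alpha3 beta1 and alpha6 beta1, was among them with 1.14 (1.02 to 1.26) in leucine-free and 1.02 (0.95 to 1.08) in replete medium, and is named here after its values were seen.

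Ccn1 encodes a matricellular ligand of the alpha v and alpha6 integrins and was higher without leucine in both genotypes. Its RNA was 2295 and 299 CPM in leucine-free and replete KO cells, against 471 and 178 CPM in leucine-free and replete WT cells, and its leucine log2 ratio was 2.94 (2.91 to 2.97) in KO and 1.40 (1.36 to 1.44) in WT cells. Ccn2 followed at 2.41 (2.36 to 2.46) in KO and 1.41 (1.33 to 1.49) in WT cells. In RNA 4 of 20 ligands passed higher in KO cells, the others being Nid1 and Thbs1, where 3.19% of all measured genes passed. In WT cells 2 passed higher and 1 lower, the lower being Tgfb1 at -1.05 (-1.71 to -0.43), where 1.71% of all measured genes passed. In footprints of KO cells Ccn1 passed higher at 2.41 (2.35 to 2.47) and Col1a1 lower at -1.49 (-2.19 to -0.89), where 2.12% of all genes passed, and the median of the 18 measured ligands was -0.16. Ccn2 footprints had 0.56 (0.38 to 0.74) in KO cells, which did not pass, and its TE passed lower there at -1.85 (-2.04 to -1.67). In footprints of WT cells Tnc and Ccn1 passed higher, at 1.65 (0.45 to 2.81) and 1.46 (1.39 to 1.53), where 1.48% of all genes passed.

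Of 26 activators and adhesion adaptors, which tie the beta tail to actin, 22 were measured in RNA and 21 in footprints. For KO over WT 0 passed in replete medium in either assay. In leucine-free medium 2 passed higher in both assays, Zyx, a zinc-binding focal adhesion protein, at 1.03 (0.94 to 1.12) in RNA and 1.17 (0.98 to 1.37) in footprints, and the kinase gene Src at 1.01 (0.93 to 1.10) and 1.54 (1.04 to 2.10). This is 2 of 22 genes in RNA and 2 of 21 in footprints, near the 8.36% and 7.2% of all measured genes that passed. No gene of this list passed for leucine in RNA or footprints in either genotype. Of 6 inactivators 5 were measured in RNA and 4 in footprints. In RNA Shank3 passed higher in KO cells at 1.37 (1.06 to 1.68) and 1.10 (0.86 to 1.35) in leucine-free and replete medium. Itgb1bp1, whose product binds the beta1 tail, passed lower at -1.01 (-1.23 to -0.79) in leucine-free medium. In footprints Dok1 alone passed, higher in KO cells in both media. Over all measured genes, 8.36% and 6.83% passed in RNA and 7.2% and 2.92% in footprints, in leucine-free and replete medium.

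Among 7 tetraspanins, membrane partners of laminin-binding integrins, 6 were measured and Tspan8 alone passed for KO over WT, with RNA log2 ratios of 2.06 (1.81 to 2.33) and 2.06 (1.79 to 2.34) and footprint log2 ratios of 1.77 (0.97 to 2.79) and 2.003 (1.59 to 2.45) in leucine-free and replete medium. Of 6 hemidesmosome partners, which share Cd151 with the tetraspanins, 3 were measured, and Plec, the plectin gene, passed lower in footprints for KO over WT in leucine-free medium at -1.18 (-1.34 to -1.02). Of 18 traffic and processing genes 16 were measured. For KO over WT 1 passed in RNA in leucine-free medium (Rab4a) and 1 in replete medium (Dab2). In footprints 2 passed in leucine-free and 1 in replete medium. Over all measured genes 8.36% and 6.83% passed in RNA and 7.2% and 2.92% in footprints, in leucine-free and replete medium. These shares apply to the tetraspanins and hemidesmosome partners too. Dab2, a clathrin adaptor for integrin uptake, passed higher in footprints of KO cells at 1.32 (0.93 to 1.75) and 1.39 (1.14 to 1.65) in leucine-free and replete medium. Furin, the protease that cleaves several alpha chains, passed higher in footprints in leucine-free medium at 1.39 (1.10 to 1.70). Rab4a, a recycling GTPase, passed lower in RNA there at -1.73 (-2.45 to -1.12), while its footprint log2 ratio was 0.47 (-0.19 to 1.20) and its TE passed higher at 2.20 (1.30 to 3.10).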

How the data were processed

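RNA-seq and ribosome footprints (lysis with cycloheximide, ribonuclease I digestion) were measured in KRPC-A cells, 1 library for each of 4 groups per assay. The deposited values are raw read counts over exons per gene, made by the authors with featureCounts 1.6.4 on Ensembl release 96 (GRCm38), per the file headers, which list no strand, multimapping or overlap option. cutadapt, STAR and Subread stand in the submitters' processing notes.

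Protein-coding genes were scaled within each assay by TMM (edgeR 4.0.16, R 4.3.3; Python 3.11.15, numpy 2.4.6, pandas 2.3.3, scipy 1.17.1, statsmodels 0.14.6, matplotlib 3.10.9). Gene classes came from RefSeq GRCm38 patch 6. CPM have exact 95% Poisson intervals. Log2 ratios used a prior count of 0.5 and exact conditional binomial intervals (Clopper-Pearson), and TE ratios and KO minus WT differences Wald intervals, all for counting error only (PCR copies can make the true error larger). A ratio passed at 2-fold or more with its interval off 0. Measured genes had a mean count of at least 30 over the 4 libraries of an assay, in both assays for TE. A count of 0 was bounded at 3 counts per library. As a group is 1 library, conditions were not tested and p-values are not given. The calculation was tested on simulated counts.

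The 10 genes and the partner lists were chosen with earlier results of these data known. All members, the other integrin genes measured in RNA, and up to 3 passing genes per list and comparison were named, with 3 genes of most similar pattern for a member that passed. Proteins and coding lengths were not used here, so levels between genes are per exonic length. 6 alternatives were tried: DESeq2 1.42.0 size factors, total counts, removal of a length trend (lowess, fraction 0.3), a prior count of 2, a mean count of at least 100, and no filter beyond 1 count.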

Additional observations from a re-analysis of the deposited data

Results flagged for a closer look

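Itga3 is listed here for both assays because its leucine-free over replete ratio lay on opposite sides of 0 in KO and WT cells, with both counting intervals off 0. The difference between the genotypes was not tested across cultures, since each group is 1 library. The KO minus WT difference of the log2 ratios was 0.46 in RNA (0.08 in KO and -0.39 in WT cells) and -0.49 in footprints (-0.15 in KO and 0.34 in WT cells). Scaled by total counts, the KO intervals crossed 0 in both assays (-0.0047 to 0.106 in RNA and -0.201 to 0.035 in footprints), so this pattern was lost in these 2 assays under that scaling. It was kept with DESeq2 size factors and with the length trend removed. The count filters and the prior count of 2 leave these intervals unchanged, so they could not have lost it. In TE the KO minus WT difference was -0.96 (-0.23 in KO and 0.73 in WT cells). The KO interval of the TE ratio was off 0 under all 6 alternatives, and by total counts it was -0.263 to -0.0042. The count filters leave this TE interval unchanged and are no check of it.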

How the results depend on the processing

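No paired analysis was possible because each group is 1 library, and leaving out a replicate could not be done for the same reason. Of 595 member ratios recomputed, 574 moved by less than their counting interval and 21 moved further. A count filter leaves a ratio unchanged, so 95 ratios under the stricter filter and 100 with no filter could not move. With the length trend removed 13 moved further and 87 did not, and with total counts 8 did and 92 did not. No member ratio at or above 2-fold turned sign. Under an alternative 16 of 100 member ratios turned sign, the largest of them 0.08 in size. Members passing in RNA numbered 0 with a mean count of at least 100 and 2 with no filter for leucine in KO cells, for KO over WT in replete medium and for the KO minus WT difference, and 1 (Itga3) and 4 (Itga2, Itga3, Itgb3 and Itgb4) for KO over WT in leucine-free medium. With no filter, 1 member passed for leucine in KO cells in footprints (Itgb8) and in TE (Itgb3), and 1 for KO over WT in replete medium in TE (Itgb3). The median of the 10 genes was -0.023 for the RNA difference with the length trend removed. With a prior count of 2 it was 0.43 for footprints of KO over WT in leucine-free medium and -0.071 for the footprint difference. Summed CPM by total counts were 2309 in RNA of replete KO cells, 2304 in RNA of leucine-free WT cells, 2251 in footprints of leucine-free KO cells and 2251 in footprints of replete WT cells; by DESeq2 size factors the last was 2333. Footprints of leucine-free WT cells are the shallowest, and values below about 30 reads have wide intervals.

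Genes passing numbered 345, 185, 738, 904 and 509 in RNA (leucine in KO, leucine in WT, KO over WT in replete medium, KO over WT in leucine-free medium, and the difference), against 137, 66, 431, 551 and 221 with a mean count of at least 100 and 1356, 900, 1761, 1854 and 1161 with no filter. In footprints they numbered 194, 136, 268, 660 and 439, against 119, 64, 109, 352 and 253 with the stricter filter and 341, 252, 690, 887 and 578 with none. In TE they numbered 276, 294, 127, 542 and 742, against 112, 150, 53, 299 and 420 with the stricter filter and 754, 679, 557, 902 and 1090 with none. The share of passing genes that were higher moved by over 10 percentage points in some comparisons: with total counts it was 80.5% for leucine in KO footprints (70.1% with TMM), 63.2% for WT footprints (48.5%), 68.5% for KO TE (51.1%) and 45.0% for WT TE (27.2%). With the length trend removed it was 36.9% for leucine in WT RNA (49.7% before), 63.0% in WT footprints and 56.6% in WT TE, and for TE 47.1% for KO over WT in replete medium (35.4%), 60.04% in leucine-free medium (71.0%) and 52.2% for the difference (65.2%). The count filters moved this share by over 10 points in 9 of 15 comparisons, furthest for leucine in WT cells: with a mean count of at least 100 it was 81.8% in RNA and 9.33% in TE, and with no filter 61.6% in TE. For TE of KO over WT in replete medium it was 15.1% with the stricter filter and 54.9% with none.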

Other observations

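Itga8, the alpha8 chain that pairs with beta1 and binds nephronectin, was below the filter on low counts and is named after its values were seen. It had 25 and 78 RNA counts in leucine-free and replete KO cells, against 0 and 0 in leucine-free and replete WT cells. Its RNA level was 0.816 and 2.07 CPM in leucine-free and replete KO cells, and the WT count of 0 allows up to 0.0759 and 0.0732 CPM in leucine-free and replete WT cells. Its footprints were 2 and 6 counts in leucine-free and replete KO cells, against 1 and 1 in leucine-free and replete WT cells. Itgb3 RNA also had its highest count in replete KO cells, with 98 counts.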
